A study of Mus musculus with 2 samples.

Results

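Atf4 and 8 genes tied to amino acid shortage and the integrated stress response, namely Asns, Ddit3, Trib3, Chac1, Sesn2, Nupr1, Psat1 and Phgdh, were followed in single ependymal cells of the mouse spinal cord before and after injury. The genes were taken from a list of names chosen with earlier results of these data known. Of the 9, 9 were present among the 17189 genes of the deposited table of EpA cells, the ependymal population the study is about. Both libraries came from adult C57BL/6J mice of at least 12 weeks that carried Troy-CreERT2+/- and a Rosa26-tdTomato reporter, so a cell was marked only where the Troy (Tnfrsf19) driver had been active, and tdTomato-positive cells were sorted from 5 mm segments of cord. One library was from uninjured cord, and the other was from cord taken at day 3 after an incision of the dorsal funiculus. Tissue was dissociated with papain, and libraries were made with the 10x Genomics 3′ kit v2, which counts unique molecular identifiers (UMIs), each standing for 1 captured transcript. The labels do not say how many mice went into a library, and with 1 library per condition no difference between conditions could be tested. All intervals below are exact 95% intervals for counting error only.

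When amino acids run short, or when unfolded protein builds up in the endoplasmic reticulum, kinases phosphorylate the initiation factor eIF2 and most translation slows. Upstream reading frames in the Atf4 transcript then let its main frame be translated, so ATF4 protein is set largely at translation and the transcript counted here does not report it. ATF4 pairs with other bZIP proteins, binds C/EBP-ATF response elements, and switches on genes for amino acid synthesis, import and tRNA charging, together with feedback and cell death regulators.

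Promoter windows that hold a core of the response element are shown first. RefSeq windows on GRCm38.p6, from 250 bases before to 50 after each start, were found for 9 of the 9 genes and searched on both strands for TGATGNAA, a core of this element. Matches were present for 4 genes, Asns, Trib3, Chac1 and Nupr1, against 1304 of 32851 windows (3.97%) over all genes. Atf4, Ddit3, Sesn2, Psat1 and Phgdh had none. A gene can have several windows, as Psat1 has, so a share of genes and a share of windows are unlike measures. Capitals mark the match, and each line reads 5′ to 3′ on the strand that carries it.
Asns, chr6:7693210-7693268, minus strand: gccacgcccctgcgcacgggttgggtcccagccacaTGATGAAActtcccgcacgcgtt
Trib3, chr2:152344028-152344057, plus strand: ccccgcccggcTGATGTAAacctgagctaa
Chac1, chr2:119351013-119351092, minus strand: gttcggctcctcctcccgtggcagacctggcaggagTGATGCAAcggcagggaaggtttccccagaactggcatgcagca
Nupr1, chr7:126625537-126625616, plus strand: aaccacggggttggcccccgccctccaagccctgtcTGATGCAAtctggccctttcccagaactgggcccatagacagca
In Asns, whose element is known as a nutrient-sensing response element, the match lay on the gene's own strand, 23 to 16 bases before the start. The other 3 matches lay on the opposite strand, from base -193 to -186 in Chac1, from -110 to -103 in Nupr1, and from 15 to 22 after the start in Trib3. Chac1 and Nupr1 shared the 8 letters TGATGCAA. No match says only that these letters are not in the window searched, and a match describes letters, not binding.

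The EpA set held 555 uninjured and 1004 injured cells, with 7689179 and 25296289 UMIs in all and medians of 11387 and 20158.5 UMIs per cell. The median share of mitochondrially encoded UMIs was 11.2% in uninjured and 6.76% in injured EpA cells. Of 7 ependymal marker genes fixed for naming cells, 0 were at 0 in either set, and their summed level was 7388 counts per 1000000 EpA UMIs (CPM) in uninjured and 1906 CPM in injured cells. The libraries shared 18 barcode sequences, 2 of which named EpA cells in both, and cells were always read by library. A doublet caller marked 1 uninjured and 3 injured EpA cells, which were kept. Sorting and dissociation cannot be told apart from injury here, since each library was prepared once.

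Of the 9 genes, 6 had a mean level of at least 5 CPM over the 2 libraries, and 4 of these 6 were at least 2-fold higher in injured EpA cells while 0 were 2-fold lower. Over all genes measured at that level, 1151 of 10527 (10.9%) were 2-fold higher and 1187 (11.3%) 2-fold lower. The median log2 ratio was 1.62 for the 6 genes and -0.03 for all measured genes. Since the genes were chosen with earlier results of these data known, their difference from all genes is a description. Asns had 2.47 CPM in uninjured cells and reached the mean of 5 CPM through its injured level.

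Atf4 itself (GRCm38 chromosome 15, 80255184 to 80257541, plus strand) had 191 UMIs in 151 of 555 uninjured EpA cells and 1613 UMIs in 559 of 1004 injured EpA cells. Its uninjured level of 24.8 CPM (21.4 to 28.6) compared with an injured level of 63.8 CPM (60.7 to 67.0), a ratio of 2.57 (2.21 to 3.00). The counting intervals of the 2 libraries did not overlap. With each cell weighted alike, which keeps the deepest cells from setting the sum, the levels were 24.3 and 51.1 CPM, a ratio of 2.10. No cell held more than 24 of the Atf4 UMIs, so the level was spread over many cells.

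Among the enzymes of amino acid synthesis, Asns makes asparagine from aspartate, and Phgdh and Psat1 catalyse the first and second steps from a glycolytic intermediate to serine. Asns (chromosome 6, 7675169 to 7693254, minus strand) had 19 UMIs in uninjured and 359 in injured EpA cells, or 2.47 CPM (1.49 to 3.86) and 14.2 CPM (12.8 to 15.7), a ratio of 5.74 (3.62 to 9.65). Phgdh (chromosome 3, 98313170 to 98339990, minus strand) had 80 and 979 UMIs, or 10.4 CPM (8.25 to 12.9) and 38.7 CPM (36.3 to 41.2), a ratio of 3.72 (2.96 to 4.73). Psat1, the next enzyme in the same pathway (chromosome 19, 15904678 to 15947337, minus strand), had 328 and 984 UMIs, or 42.7 CPM (38.2 to 47.5) and 38.9 CPM (36.5 to 41.4). The Psat1 ratio was 0.912 (0.804 to 1.04), so the intervals of its 2 libraries overlapped while those of Asns and Phgdh did not. The ratios of Asns and Phgdh were smaller with each cell weighted alike, at 2.18 and 2.31, and Psat1 then stood at 0.828. A pseudogene named Phgdh-ps1 is annotated, and how the authors' counting treated shared reads is not given in the sources used here.

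Nupr1 encodes a small chromatin-associated stress protein and had the largest ratio of the 8 genes seen in both EpA sets. Its 98 uninjured UMIs were in 8 of 555 EpA cells, and its 9964 injured UMIs were in 473 of 1004 EpA cells. The summed levels were 12.7 CPM (10.3 to 15.5) and 394 CPM (386 to 402), a ratio of 30.9 (25.3 to 38.1). The uninjured level came almost whole from 1 cell, which held 88 of the 98 UMIs. That cell had 14874 UMIs, 0 of the 7 ependymal markers and high Ly6a, Gsto1, Ltf, Ecm1 and Plet1, the leading genes by fold in it. It fell with 6 other uninjured EpA cells in cluster 6 of the kept cells, a cluster called endothelial-like from its markers. The 7 cells together held 2 endothelial and 4 ependymal marker UMIs. They also held 11 oligodendrocyte marker UMIs, all of Mbp in the cell with 88 Nupr1 UMIs. That cell gave 14874 of the 21119 UMIs of the 7 cells and so weighs most in their sums. The summed ependymal level of the 7 cells was 189 CPM, against 7408 CPM over the other uninjured EpA cells.

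Those 7 cells held 96 of the 98 uninjured Nupr1 UMIs. Without the cell richest in Nupr1 in each library the levels were 1.30 and 373 CPM, a ratio of 287 (156 to 598). In the EpA cells of clusters made mostly of EpA cells, an alternative chosen after seeing the data, Nupr1 had 2 uninjured UMIs (0.261 CPM) and 394 CPM in injured cells, and the ratio was 1510 with an interval of 418 to 12474. With each cell weighted alike and no cell removed it was 8.78. The size of the Nupr1 ratio therefore depended on these few uninjured cells, while its direction was the same in these 4 computations.

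**Figure D1:**
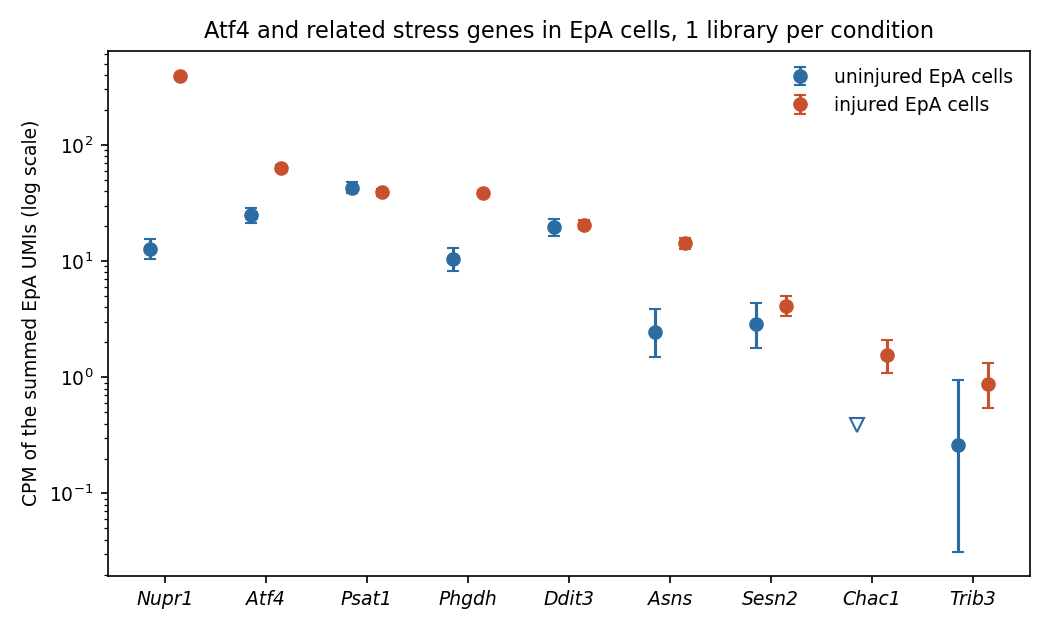
Level of each of the 9 genes in CPM of the summed EpA UMIs (log scale) in the uninjured (blue) and injured (red) library, with exact 95% Poisson intervals for counting error. The open triangle is the floor of 3 counts for Chac1, whose 0 UMIs in uninjured EpA cells may be a filled value. Red points lie clear of the blue ones for Nupr1, Atf4, Phgdh, Asns and Chac1, and the intervals overlap for Psat1, Ddit3, Sesn2 and Trib3.

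The feedback and cell death genes were low or level. Ddit3 encodes CHOP, a transcription factor linked to cell death under lasting stress (chromosome 10, 127290774 to 127296288, plus strand). It had 150 and 520 UMIs, or 19.5 CPM (16.5 to 22.9) without injury and 20.6 CPM (18.8 to 22.4) with it, giving a ratio of 1.05 (0.877 to 1.27). Its interval excludes a 2-fold difference in either direction for these 2 libraries. Ddit3 overlaps Mars, a tRNA synthetase gene on the opposite strand that is also in the table, and whether strand was used in counting is not given in the sources used here.

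Trib3, a pseudokinase that restrains ATF4 and CHOP, had 2 UMIs in uninjured and 22 UMIs in injured EpA cells, or 0.26 CPM (0.0315 to 0.94) and 0.87 CPM (0.545 to 1.32). The Trib3 ratio of 3.34 had an interval of 0.822 to 29.3. Chac1, a glutathione-degrading enzyme, stood at 0 UMIs in 555 uninjured cells and had 39 UMIs in 28 of 1004 injured cells. Its injured level was 1.54 CPM (1.10 to 2.11). It has no row in the uninjured library's own table, which lists genes seen in at least 3 cells. Genes without such a row summed to 0 UMIs in the uninjured EpA cells, so this 0 may be a filled value. Chac1 could then have been in fewer than 3 uninjured cells. Against a floor of 3 counts in the uninjured set (0.39 CPM), the injured level was 3.95-fold higher. If the 0 was counted, the exact interval of the ratio, which also covers counting error in the 39 injured UMIs, starts lower, at 3.06. Sesn2, a leucine sensor that restrains mTORC1, had 22 and 104 UMIs, or 2.86 CPM (1.79 to 4.33) and 4.11 CPM (3.36 to 4.98), a ratio of 1.44 (0.901 to 2.39). All of Trib3, Chac1 and Sesn2 stayed below the mean of 5 CPM, and the intervals of the 2 libraries overlapped for Trib3 and Sesn2. Sesn2 also overlaps Gm12981 on its own strand.

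The libraries differ in depth, so each cell was also thinned to 2000 UMIs, with 8 uninjured and 12 injured EpA cells too shallow to enter. At that depth Atf4 was seen in 5.12% (3.43 to 7.31) of 547 uninjured and 9.58% (7.82 to 11.6) of 992 injured cells, against 27.2% and 55.7% at full depth. Asns was seen in 0.548% and 2.72% of thinned cells, Phgdh in 2.56% and 4.33%, and Nupr1 in 0.183% and 21.8%. Ddit3 was at 4.57% and 4.54%, and Psat1 at 7.68% and 6.65%. Trib3 and Chac1 were seen in 0 of 547 uninjured cells, which allows a share of up to 0.548%, and each in 0.202% of injured cells, so no difference in them was detectable at this depth.

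In another random draw to 2000 UMIs per cell, the ratio of summed counts was 2.25 (1.47 to 3.53) for Atf4, 4.23 (1.28 to 22.0) for Asns and 42.8 (19.5 to 117) for Nupr1. For Phgdh it was 1.61 (0.862 to 3.21), below the 2-fold mark. Kept cells outside EpA in cluster 10, led by haemoglobin genes together with endothelial genes, and cluster 12, led by Cd74 and Cd79a, served as a rough reference for free RNA. Cluster 10 had 7 of 7 endothelial markers at 100 CPM or more. A UMI in these cells can therefore be their own transcript, and their shares do not measure free RNA alone. At 2000 UMIs Nupr1, Asns and Psat1 were each seen in 0 of 22 uninjured and 0 of 37 injured cells of this kind, which allows shares of up to 13.6% and 8.11%. Phgdh was seen in 0 of 22 and 2 of 37 (5.41%), at or above its injured EpA share, and at full depth it had 0 UMIs in cluster 10 and 91.1 CPM in injured cells of cluster 12. Atf4, which most cell types transcribe, was seen in 22.7% and 24.3% of them, so they give no free-RNA level for it.

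Injured EpA cells were next divided by how much cilium transcript they kept, with a score that uses 42 motile cilium genes and none of the 9 genes. Cells at or above the 5th percentile of uninjured EpA cells (0.95% of 2000 UMIs) were called in range. That left 523 uninjured and 437 injured cells in range, and 24 and 555 cells below it. The score is continuous and its classes are not cell types, and 113 injured and 81 uninjured cells lay within 20% of the dividing value. Median depth was 11463 UMIs in uninjured in-range cells, 11674 in injured in-range cells and 28289 in injured cells below the range. The 7 ependymal markers summed to 7480, 5748 and 584 CPM in the same order.

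Markers of other cell types were summed over the same 3 groups of cells, in the same order. The 6 pericyte and smooth muscle markers gave 26.8, 36 and 162 CPM, and 4 oligodendrocyte precursor markers gave 0.813, 2.01 and 35.1 CPM, with 0 markers of either list at 0 in injured cells below the range. The 8 microglia and macrophage markers gave 4.06, 9.12 and 3.72 CPM, the 7 endothelial markers 16.3, 12.4 and 7.39 CPM, and the 6 fibroblast markers 30.6, 38.5 and 37.7 CPM. The 5 neuron markers gave 652, 683 and 247 CPM, 5 oligodendrocyte markers 19.5, 17.5 and 10.3 CPM, the 6 astrocyte markers 647, 893 and 711 CPM, and the 4 Schwann cell markers 34.4, 37.9 and 57.7 CPM. Pericyte, precursor and Schwann cell sums were thus higher, and neuron, astrocyte, oligodendrocyte, endothelial and microglia sums lower, in injured cells below the range than in injured in-range cells, and their part in the levels below was not tested.

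Injured cells that had kept cilium transcripts stood within 2-fold of uninjured cells for every measured gene of the set but Nupr1. Between in-range cells of the 2 libraries, 1 of 5 measured genes was 2-fold higher and 0 were lower, with 136 of 10199 genes (1.33%) higher and 0.647% lower over all. For Atf4 the uninjured in-range cells had 24.5 CPM (21.1 to 28.4) and the injured ones 30.9 CPM (26.8 to 35.5). Asns was at 2.44 and 4.02 CPM, with a ratio of 1.65 (0.870 to 3.19), and Ddit3 at 19.9 and 20.6 CPM. Phgdh was at 9.89 CPM (7.75 to 12.4) and 6.34 CPM (4.55 to 8.60), a ratio of 0.641 (0.426 to 0.953) that points the other way from its ratio over all EpA cells. Nupr1 had 2 UMIs in the 523 uninjured in-range cells (0.271 CPM) and 401 UMIs in the 437 injured ones (62.0 CPM, 56.1 to 68.4). The Nupr1 ratio was 229, with an interval of 63.0 to 1897, and 46 of those 437 injured cells held its UMIs. Nupr1 reached the mean of 5 CPM here through its injured level.

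In injured cells below the range Atf4, Asns, Phgdh and Nupr1 were higher than in uninjured in-range cells. Against uninjured in-range cells, 4 of 6 measured genes were 2-fold higher and 0 lower, with 14.6% of all genes higher and 17.3% lower. Asns and Nupr1, at 2.44 and 0.271 CPM in uninjured in-range cells, reached the mean of 5 CPM through their levels below the range. Atf4 stood at 75.1 CPM (71.2 to 79.1), a ratio of 3.06 (2.62 to 3.6). Asns stood at 17.7 CPM (15.8 to 19.7), a ratio of 7.26 (4.52 to 12.4), and Phgdh at 49.9 CPM (46.7 to 53.1), a ratio of 5.04 (3.97 to 6.49). Nupr1 stood at 508 CPM (498 to 519). Ddit3 at 20.6 CPM (18.6 to 22.7) and Psat1 at 39.8 CPM (37.0 to 42.7) had intervals that overlapped those of uninjured in-range cells. The 24 uninjured cells below the range were too few for close comparison. At 2000 UMIs per cell Phgdh was seen in 12.5% (2.66 to 32.4) of them, Atf4 in 8.33% (1.03 to 27.0), Nupr1 in 4.17% (0.105 to 21.1) and Asns in 0. The injured shares below the range were 6.49%, 12.6%, 35.7% and 2.34%, so a higher Phgdh below the range was not shown to be particular to the injured library.

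Within the injured library, where dissection, sorting and library preparation were shared, cells below the range also exceeded in-range cells by 2.43-fold (2.09 to 2.83) for Atf4, 4.40-fold (2.95 to 6.84) for Asns, 7.86-fold (5.75 to 11) for Phgdh and 8.20-fold (7.42 to 9.08) for Nupr1. Here too 4 of 6 measured genes were higher and 0 lower, with 11.9% of all genes higher and 15.3% lower. Asns, at 4.02 CPM in injured in-range cells, again reached the mean of 5 CPM through its level below the range. Ddit3 (ratio interval 0.819 to 1.23) and Psat1 (ratio 1.09, 0.940 to 1.27) did not differ beyond counting error. At 2000 UMIs per cell, Atf4 was seen in 5.49% of injured in-range cells and 12.6% of those below, Phgdh in 0.915% and 6.49%, and Asns in 0 of 437, which allows a share of up to 0.686%, and 2.34%. Each group was thinned in its own random draw, so these shares do not add up to those over all injured EpA cells. For Asns that overall share was 2.72%, above both of its parts, which shows the spread between draws. The depth of these cells moved with the result, and the thinned shares keep the direction.

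Cells in division made up part of the group below the range, and both serine enzymes were higher in them than in the rest. With division called from at least 2 of 10 core dividing-cell genes, 123 of the 555 injured cells were dividing and 1 uninjured cell was. Dividing cells were deeper, with a median of 51399 UMIs against 24686.5. Phgdh was at 75.7 CPM (69.3 to 82.6) in dividing and 35.5 CPM (32.2 to 39.0) in other cells below the range, a ratio of 2.13 (1.87 to 2.43). Psat1 was at 54.6 CPM (49.2 to 60.5) and 31.5 CPM (28.4 to 34.8), a ratio of 1.73 (1.5 to 2.01). Atf4 was at 88.2 and 67.8 CPM and Nupr1 at 604 and 455 CPM, ratios of 1.30 and 1.33.

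Chac1 and Ddit3 went the other way in dividing cells. Chac1 had 2 UMIs in the 123 dividing cells and 35 UMIs in the other 432 cells, 0.298 and 2.89 CPM, a ratio of 0.103 (0.0120 to 0.400). Ddit3 was at 16.2 CPM in dividing and 23.0 CPM in other cells, a ratio of 0.705 (0.560 to 0.883). By the 2-fold rule 1 of 6 measured genes was higher in dividing cells and 0 lower, against 6.08% and 7.85% of all genes. Without any dividing cell, Phgdh over all EpA cells was 10.3 and 25.3 CPM, a ratio of 2.46 (1.93 to 3.16), and Psat1 was 42.6 and 33.2 CPM, a ratio of 0.779 (0.680 to 0.894).

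**Figure D2:**
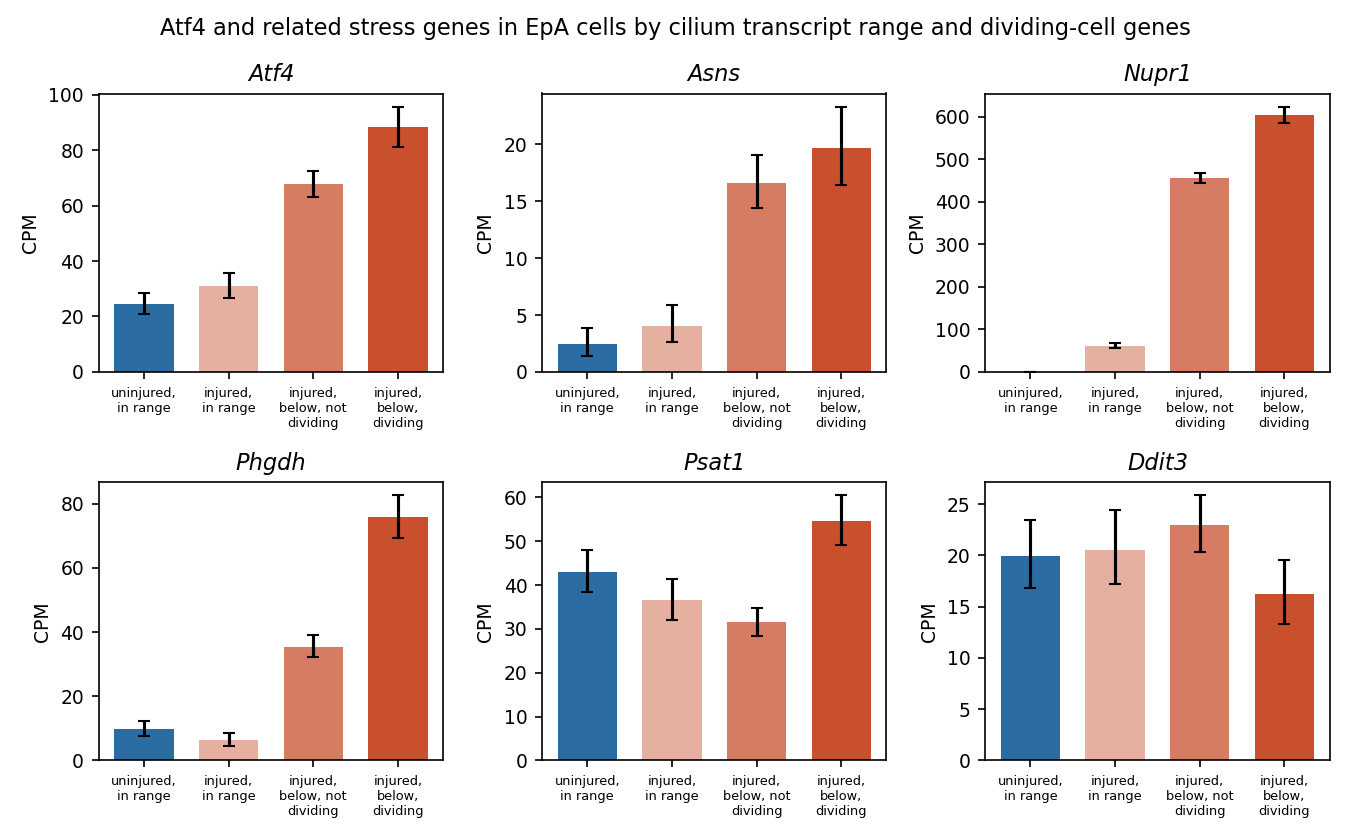
CPM of 6 genes in 4 groups of EpA cells, with bars from 0 and exact 95% Poisson intervals: 523 uninjured cells in the cilium range, 437 injured cells in range, and injured cells below the range without (432 cells) and with (123 cells) dividing-cell genes. Atf4, Asns and Phgdh step up between the second and the third bar, Nupr1 is already above the uninjured bar in injured in-range cells, and Ddit3 stays between 16.2 and 23.0 CPM.

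Joint clustering of the kept cells placed injured EpA cells below the range mainly in clusters 3, 4 and 5, which rest on too few fixed markers or on mixed ones and carry no name. Nupr1 and Phgdh were among the 2000 variable genes used for clustering and the other 7 genes were not, so the cluster levels of Nupr1 and Phgdh are a description. Atf4 in injured EpA cells was at 18.5 CPM (13.3 to 25) in cluster 0, 28.8 CPM (19.4 to 41.1) in cluster 2 and 35.8 CPM (30.1 to 42.3) in cluster 1, all ependymal-like. It was at 58.2 CPM (51.4 to 65.6) in cluster 4, led by Lypd1 and Gfap, and at 77.6 CPM (71.1 to 84.5) in cluster 3, led by Crym and Wnt7b. Atf4 was at 91.1 CPM (84.0 to 98.7) in cluster 5, whose leading genes include S100a9, S100a8 and Elane, myeloid granule genes, beside the division genes Prc1 and Cdc20. The 3 neutrophil markers summed to 0.079 CPM in injured EpA cells, and cluster 5 also held 2 uninjured and 4 injured cells outside EpA. The order of these levels ran 0, 2, 1, 4, 3, 5, and the intervals of clusters 0 and 2, and of 2 and 1, overlapped. In uninjured EpA cells Atf4 was at 18.2 CPM (14.7 to 22.3) in cluster 0 and 36.5 CPM (29.4 to 44.7) in cluster 2.

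Nupr1 was at 2.20, 2.88 and 74.0 CPM in clusters 0, 2 and 1 of injured EpA cells, and at 290, 595 and 644 CPM in clusters 4, 3 and 5. The UMIs were also uneven among cells. The 101 injured EpA cells richest in Nupr1 held 70.1% of its UMIs, while the 101 deepest cells held 28.1% of all UMIs. In 227 of the 1004 cells Nupr1 reached at least 10 UMIs, in 54 cells at least 50, and in the highest cell 536.

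**Figure D3:**
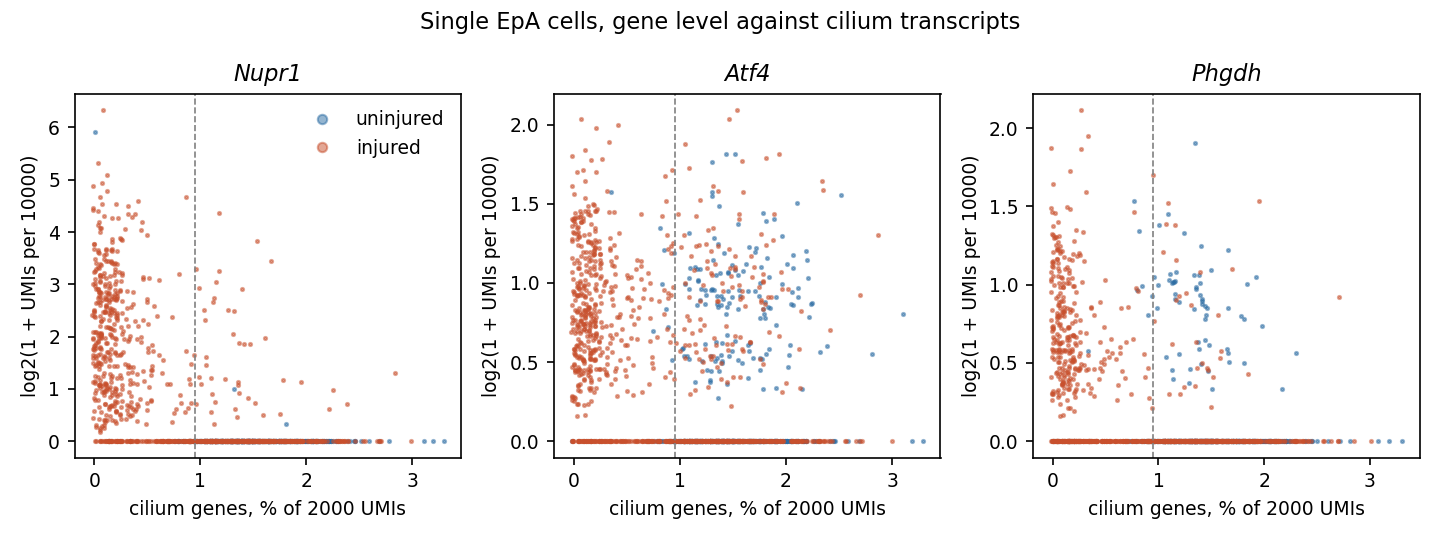
Each point is 1 EpA cell, with cilium genes as a percent of 2000 UMIs across and log2 of 1 plus UMIs per 10000 up for Nupr1, Atf4 and Phgdh; the dashed line is the dividing value of 0.95%. Red injured cells with Nupr1 gather left of the line, the lone high blue point is the cell with 88 Nupr1 UMIs, and Atf4 is spread on both sides of the line in both libraries.

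The genes were also read together cell by cell. At 5000 UMIs per cell, 61.0% of 539 uninjured and 35.6% of 972 injured EpA cells had 0 of the 9 genes, 5.19% and 20.5% had 2 of them, and 0.742% and 5.76% had 3. No cell had more than 5. Over the 972 injured cells, which share a library and depth, Atf4 and Nupr1 were seen together in 93 cells, with 71.9 expected if they were independent, and Pearson's r was 0.103. The pair with the highest r was Nupr1 and Phgdh at 0.127, seen together in 59 cells with 36 expected. Asns and Phgdh were seen together in 9 cells with 3.67 expected, and Atf4 and Asns in 12 with 7.35 expected, each with r of 0.07. In counts this sparse such values are no finding.

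The genes most alike to Atf4 across injured EpA cells by Pearson's r of log counts were Tmsb10 (0.206), Lgals1 (0.2) and Tmsb4x (0.196), with 0.01, 0.109 and 0.02 over 539 uninjured cells. For Nupr1 they were Lgals1 (0.545), Crym (0.542) and Tmsb10 (0.534), and for Phgdh Lgals1 (0.302), Stmn1 (0.278) and Tmsb10 (0.276). Psat1 had Grb2, Ankrd40 and Mettl20 at 0.134 or less. Tmsb10 and Tmsb4x encode actin-binding thymosins, Lgals1 a galectin and Stmn1 a microtubule-destabilising protein. The other 5 genes were seen in under 10% of injured cells at this depth and were not ranked.

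The wider pathway was read from gene lists chosen with earlier results of these data known. Of 20 cytosolic aminoacyl-tRNA synthetases, which charge tRNA with amino acids, 20 were measured, 5 were 2-fold higher in injured EpA cells and 0 lower, against 10.9% and 11.3% of all measured genes, and 19 had a log2 ratio above 0. Their median log2 ratio was 0.73. Vars went from 11.3 to 38.1 CPM, Gars from 18.5 to 53.3, Sars from 46.8 to 126 and Aars from 25.1 to 65.1. In injured in-range cells 0 of the 20 were 2-fold higher than in uninjured in-range cells, with a median of 0.22, against 1.33% of all genes. Below the range 8 were, with a median of 0.94, against 14.6% of all genes.

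Amino acid transporters were mixed. Of 11, 5 were measured, 0 were higher and 1 was lower, with a median log2 ratio of -0.36, against 10.9% higher and 11.3% lower over all genes. The lower one was Slc6a9, a glycine transporter, at 29.1 and 11.3 CPM. Slc1a4 was at 30.7 and 17.7 CPM, a ratio of 0.576 (0.491 to 0.677). Slc3a2, the shared heavy chain of several transporters, was at 68.3 and 92.4 CPM, and Slc38a2, a well-known ATF4 target, at 95.6 and 74.6 CPM. The 6 transporters under the mean of 5 CPM were not called, and no share over all genes that low was computed. Those with ratio intervals above 1 follow, while the intervals of Slc7a3, Slc7a11 and Slc43a1 included 1. Slc7a1, a cationic amino acid transporter, had 8 and 131 UMIs (ratio 4.98, 2.45 to 11.8). Slc7a5, the light chain of a large neutral amino acid transporter, had 10 and 103 UMIs (ratio 3.13, 1.64 to 6.72), and the glutamine transporter Slc1a5 had 1 and 27 UMIs (ratio 8.21, 1.35 to 336).

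Of 12 other genes of serine, one-carbon and proline synthesis, 8 were measured, 2 were higher, 1 was lower and the median was 0.18, against 10.9% higher and 11.3% lower over all genes. Aldh18a1, the entry enzyme of proline synthesis, was at 4.55 and 12.3 CPM, and Shmt2, the mitochondrial serine hydroxymethyltransferase, at 8.32 and 16.8 CPM. Aldh18a1 reached the mean of 5 CPM through its injured level. Cbs, which turns serine and homocysteine into cystathionine, was the lower one, at 32.9 and 13.0 CPM. Psph, the last enzyme of serine synthesis, was at 35.4 and 39.6 CPM. Under the mean of 5 CPM, Shmt1, the cytosolic serine hydroxymethyltransferase, had 6 and 148 UMIs (ratio 7.50, 3.36 to 20.8). The mitochondrial folate enzyme Aldh1l2 had 0 and 41 UMIs and the proline synthesis enzyme Pycr1 had 0 and 27, with ratio intervals that start at 3.23 and 2.08. As for Chac1, a 0 may be a filled value. The interval of Cth, also under that mean, included 1.

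The kinases that phosphorylate eIF2, its phosphatase subunits and its own subunits gave 0 higher and 1 lower of 15 measured, with a median of 0.34, beside the same 10.9% and 11.3% of all genes. The kinase that senses uncharged tRNA, Eif2ak4, was at 7.93 and 7.67 CPM. Impact, an inhibitor of that kinase, was the lower one, at 97.1 and 38.0 CPM. Phosphorylation of eIF2 is not seen in transcript counts.

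Among 8 measured bZIP partners of ATF4, 2 were higher and 0 lower, with a median of 0.33, where 10.9% of all genes were higher and 11.3% lower. They were Nfe2l2, the oxidative stress factor, at 32.9 and 89.7 CPM, and Atf5 at 18.5 and 38.4 CPM. Atf3 was at 89.6 and 53.7 CPM. Maf, under the mean of 5 CPM, had 9 and 145 UMIs (ratio 4.90, 2.51 to 10.9).

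Other known ATF4 targets gave 2 higher and 0 lower of 14 measured, with a median of -0.10, a share near the 10.9% of all genes that were higher. Eif4ebp1, a repressor of cap-dependent translation, was at 2.60 and 53.6 CPM, and Gadd45a, a growth arrest gene, at 18.6 and 94.2 CPM. Eif4ebp1 reached the mean of 5 CPM through its injured level. Ddit4 was at 37.2 and 21 CPM and Bbc3 at 29.4 and 17.9 CPM. Under the mean of 5 CPM, Tnfrsf10b had 15 and 146 UMIs (ratio 2.96, 1.74 to 5.42). Cdsn had 0 and 96, with an interval that starts at 7.76. The intervals of Gdf15, Stc2 and Soat2, also under that mean, included 1.

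Chaperones of the endoplasmic reticulum, which answer to ATF6 and XBP1 rather than mainly to ATF4, gave 0 higher and 0 lower of 18 measured, with a median of 0.15. Hspa5, the chaperone BiP, was at 476 and 529 CPM. Under the mean of 5 CPM, Edem1 had 11 and 167 UMIs (ratio 4.61, 2.51 to 9.42). Ern1 had 40 and 89 (ratio 0.676, 0.461 to 1.01). Of 10 sestrin and p53 target genes 2 were higher and 0 lower, Bax (60.9 and 141 CPM) and Phlda3 (22.8 and 47.0 CPM), and Cdkn1a was at 78.7 and 47.8 CPM. Genes linked to dissociation were mixed, with 3 higher and 2 lower of 18 and a median of -0.12. For these 3 lists too the share over all genes was 10.9% higher and 11.3% lower. Ier3 was at 15.9 and 137 CPM and Hspa1b at 163 and 57.0 CPM, and the part of dissociation in the levels of Atf4 and its targets was not tested.

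**Figure D4:**
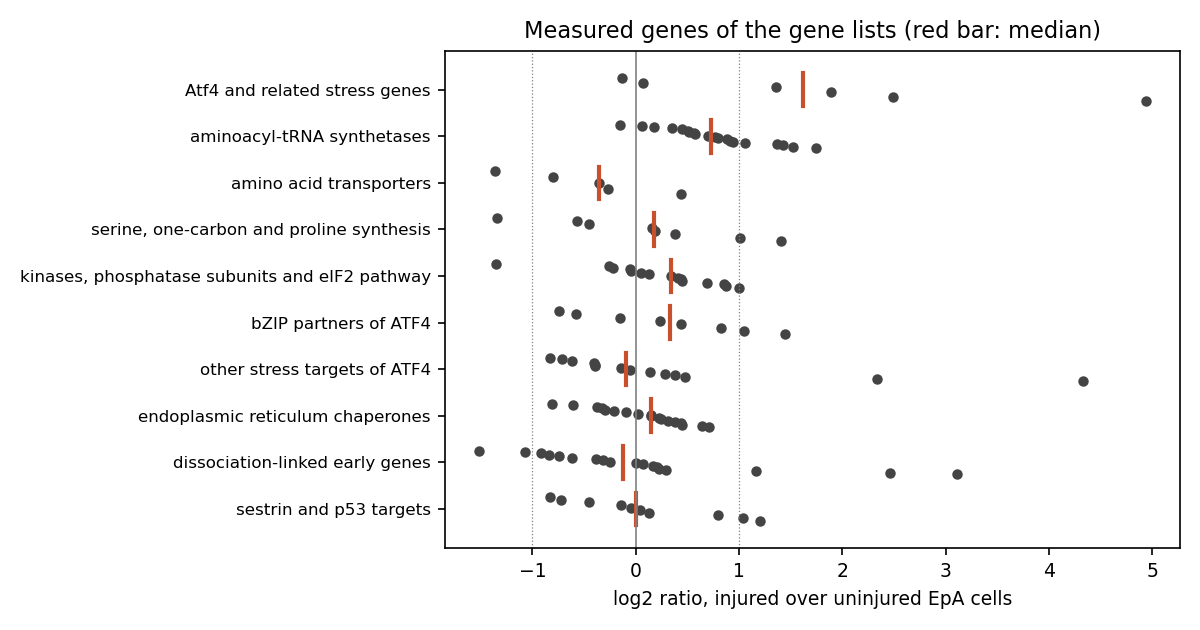
Log2 ratio of injured over uninjured EpA cells for every measured gene of 10 lists, 1 point per gene with a red bar at the list's median and dotted lines at 2-fold; vertical offsets only separate the points. The tRNA synthetases sit mostly right of 0 (median 0.73), and the endoplasmic reticulum chaperones sit around 0 (median 0.15).

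Sorted cells outside the EpA set were used for comparison, with 156 uninjured and 224 injured kept cells, 1281715 and 6969678 UMIs, and a different mix of cell types in each library. Atf4 reached 138 CPM (119 to 160) in the uninjured and 116 CPM (108 to 124) in the injured cells of this kind, above both EpA levels. Nupr1 was at 64.0 CPM (50.9 to 79.4) and 193 CPM (183 to 204), Asns at 17.2 and 34.3 CPM, Phgdh at 34.3 and 66.1 CPM and Psat1 at 6.24 and 28.1 CPM. Ddit3 was at 38.2 CPM (28.3 to 50.5) and 18.4 CPM (15.3 to 21.8), and Sesn2, from 10 and 21 UMIs, at 7.80 and 3.01 CPM. Trib3 was at 4.68 and 5.31 CPM. Chac1 had 13 UMIs in the injured cells of this kind. It has no row in the uninjured library's table, which lists genes seen in at least 3 cells. Its uninjured count is therefore not known outside EpA, as within it. Of 7 measured genes 2 were higher and 2 lower, against 8.37% and 22.4% of all genes. Sesn2, 1 of the lower ones, reached the mean of 5 CPM through its uninjured level.

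By cluster the levels differed more than the pooled sums show. In 37 uninjured and 30 injured microglia and macrophage-like cells Atf4 was at 351 CPM (281 to 432) and 134 CPM (109 to 163), a log2 ratio of -1.39, opposite in sign to EpA cells. Phgdh in those cells was at 83.7 CPM (51.8 to 128) and 190 CPM (160 to 224), and Psat1 had 1 and 62 UMIs, or 3.99 and 84.0 CPM. Ddit3 there was at 112 and 55.5 CPM. Of 5 measured genes 2 were higher and 2 lower, against 13.3% and 29.4% of all genes. Psat1, 1 of the higher ones, reached the mean of 5 CPM through its injured level. Against EpA cells of the same library, 4 of 6 measured genes were higher and 1 lower in the injured cells of this cluster, with 14.9% and 33.1% of all genes. In the uninjured ones 5 were higher and 1 lower, with 26.6% and 30.9% of all genes, and the Sesn2 call among them rests on 2 UMIs. Atf4 was 14.1-fold (10.8 to 18.3) above EpA cells in the uninjured library and 2.10-fold (1.70 to 2.58) in the injured one. The cluster pools microglia with macrophages, and their proportions in the 2 libraries were not tested.

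In 30 uninjured and 36 injured fibroblast-like cells Nupr1 was at 297 CPM (222 to 390) and 657 CPM (611 to 705), above the EpA level in both libraries. Atf4 in them was at 114 CPM (69.9 to 177) and 102 CPM (84.0 to 122). Between these libraries 3 of 7 measured genes were higher and 1 lower in fibroblast-like cells, with 11.6% and 27.8% of all genes. The calls of Asns and Psat1 (higher) and Trib3 (lower) rest on 2, 0 and 3 uninjured UMIs. The Asns ratio had an interval of 0.956 to 31.0. Psat1 reached the mean of 5 CPM through its injured level, which was 0.81 of a floor of 3 uninjured counts. Nupr1, the remaining call, had 52 and 756 UMIs. Over injured EpA cells, 1 of 6 was higher in injured fibroblast-like cells (Asns) and 1 lower (Psat1), with 12.4% and 25.5% of all genes. In 81 injured endothelial-like cells of cluster 6, Trib3 was at 8.64 CPM (5.95 to 12.1), against 0.87 CPM in injured EpA cells, and Asns was at 43.4 CPM (37.1 to 50.6). Of 6 measured genes 1 was higher than in injured EpA cells (Asns) and 2 lower (Ddit3 and Nupr1), with 12.6% and 24.6% of all genes. Uninjured cells outside EpA numbered 6 in that cluster, too few to set beside them. In 27 uninjured and 16 injured endothelial-like cells of cluster 9 Nupr1 had 0 and 8 UMIs, and it was the 1 gene of 4 measured that was higher there, with 0 lower, against 11.4% and 15.2% of all genes. It reached the mean of 5 CPM there through its 8 injured UMIs. In 30 uninjured and 7 injured astrocyte-like cells Nupr1 had 0 UMIs in each, and Phgdh was at 51.2 CPM (26.5 to 89.5) and 176 CPM (87.7 to 314).

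**Figure D5:**
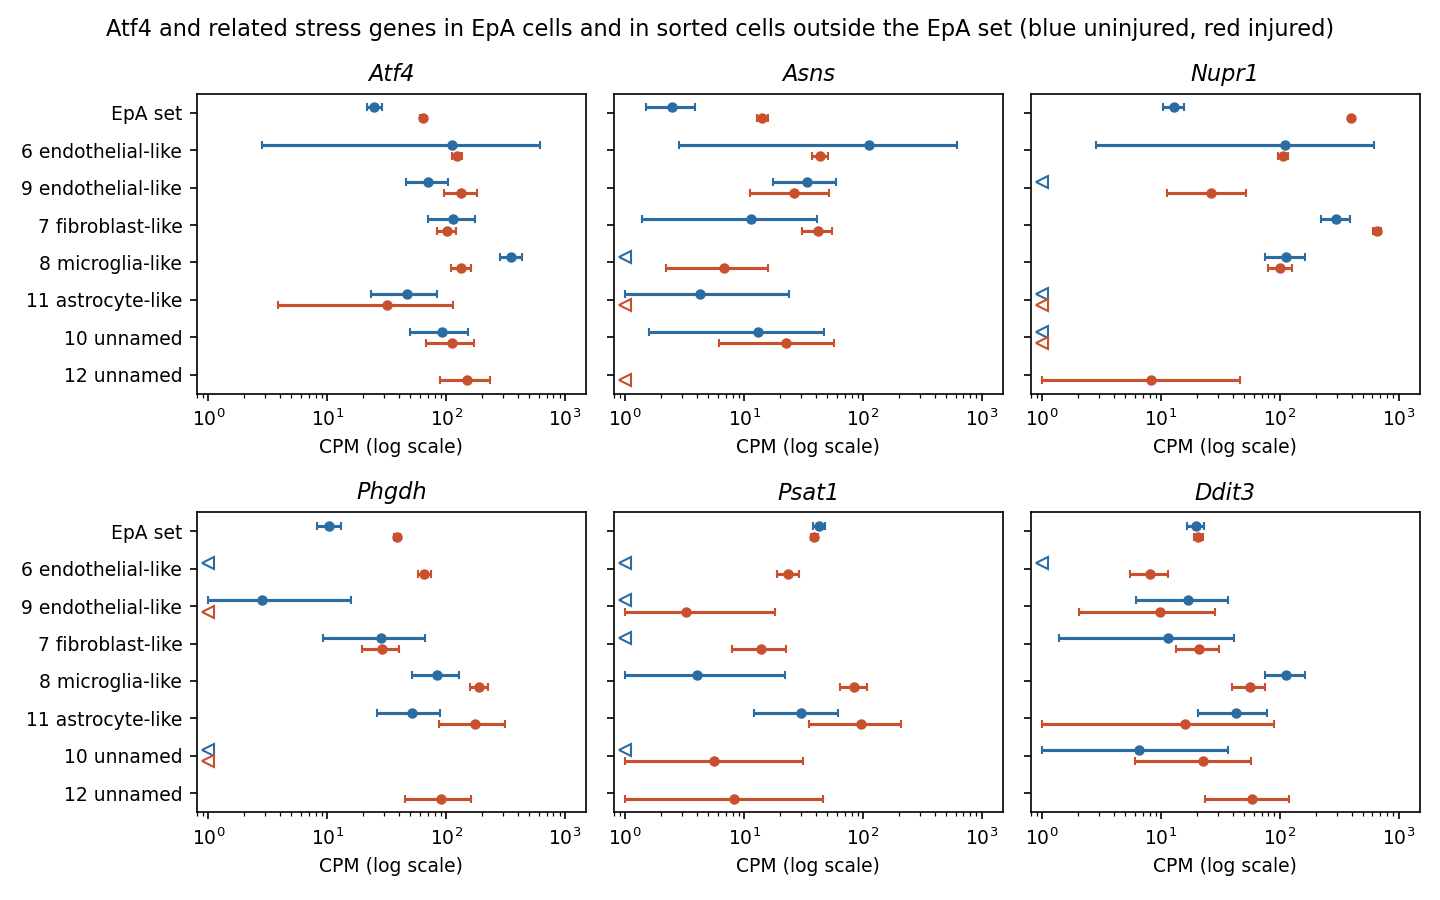
CPM (log scale) of 6 genes in the EpA set and in clusters of kept cells outside it, uninjured in blue and injured in red, with exact 95% Poisson intervals cut at 1 CPM; open triangles mark 0 UMIs, and groups under 6 cells are left out. Atf4 is highest in uninjured microglia-like cells (351 CPM), and Nupr1 is highest in injured fibroblast-like cells (657 CPM).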

How the data were processed

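Single-cell 3′ RNA libraries of 1 uninjured and 1 injured spinal cord preparation were used. The submitters' processing notes name Cell Ranger 3.0.1, Seurat and the mm10 build. Which step each tool did, the Seurat version and the gene annotation used were not given in the sources used here. Each deposited value is a raw UMI count for 1 gene in 1 cell, and the authors' lists set which cells were kept and which were EpA. The table of kept cells did not list Chac1 or Psat1, so counts for every cell came from the per-library tables and the EpA table, whose shared values were identical. A gene seen in fewer than 3 cells of a library is left out of that library's table, which is the case for Chac1 in the uninjured library.

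UMIs were summed over cells of each library and scaled to CPM. Log2 ratios used 0.5 added counts. A gene counted as measured from a mean of 5 CPM up and was called at 2-fold. Levels have exact Poisson intervals, and ratios have exact conditional binomial intervals. Shares of cells have exact Clopper-Pearson intervals, and a share of 0 has a limit of 3 cells of the total. Intervals cover counting error only. Kept cells were clustered with scikit-learn 1.9.0 and leidenalg 0.10.2 (2000 variable genes, 20 components, 15 neighbours, resolution 0.5). Doublets were called with scanpy 1.11.5. A cluster was named from at least 3 fixed markers at 100 CPM or more, and one made mostly of EpA cells was scored on the ependymal markers. The 2-fold rule recovered most known changes larger than 2-fold in simulated counts of genes well above 5 CPM. That simulation held no single cells and no variation between libraries beyond counting error. It does not check genes near 5 CPM or levels set by a few cells.

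The 9 genes and all lists were chosen with earlier results of these data known. Besides the 9 genes, those named are up to 4 per list with the largest log2 ratio and the 3 most correlated genes of each gene seen in at least 10% of injured cells. Psph, Eif2ak4, Hspa5 and Cdkn1a were named for their place in the pathway, outside that rule. List genes under the mean of 5 CPM, such as Slc7a1, Slc7a5, Slc1a5, Shmt1, Aldh1l2, Pycr1, Maf, Tnfrsf10b, Cdsn and Edem1, were named after their values were seen. Alternatives changed the scaling, depth, cell filters, gene floor and fold. edgeR 4.0.16 gave TMM factors only.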

Additional observations from a re-analysis of the deposited data

Results flagged for a closer look

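Atf4 was higher in injured EpA cells and lower in injured microglia and macrophage-like cells of the same libraries. Its log2 ratio of injured over uninjured was 1.36 in EpA cells, -1.39 in microglia and macrophage-like cells and -0.26 in all kept cells outside EpA. The median over all measured genes was -0.03, -0.34 and -0.24 in the same order, so Atf4 in all kept cells outside EpA lay near the median gene. The differences between the Atf4 ratios were not tested, since each condition has 1 library, and the mix of cells outside EpA differed between libraries.

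A signal was also present in barcodes that the authors did not keep, which entered none of the comparisons above. In 338 such injured barcodes, with a median of 2350 UMIs, Atf4 was at 136 CPM, Asns at 31.7 CPM, Trib3 at 17.7 CPM and Nupr1 at 195 CPM. In 165 such uninjured barcodes, with a median of 2272 UMIs, the same genes were at 40.5, 5.07, 0 and 5.07 CPM. The median share of mitochondrially encoded UMIs was 0.0933% in the injured and 0.689% in the uninjured barcodes of this kind. Over all, 4 of 8 measured genes were 2-fold higher and 1 lower in injured barcodes of this kind, with 15.8% and 16.2% of all genes. The Trib3 level came from 24 UMIs in 10 barcodes. Trib3 (higher) and Sesn2 (lower) each reached the mean of 5 CPM only through the library where it was higher.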

How the results depend on the processing

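Over 15 alternative settings, 0 of the 4 called genes changed to the other direction. Ddit3, Sesn2 and Psat1, which were not called, took both signs. The count of 4 genes at least 2-fold higher became 2, with 2 measured, where 50 CPM was required in either library. It became 3 when cells were thinned to 2000 UMIs (Phgdh lost, log2 ratio 0.66) and when all deposited barcodes or all kept cells were used (Atf4 lost, log2 ratios 0.92 and 0.87). Where no floor was set, Trib3 and Chac1 also passed 2-fold, with log2 ratios of 1.45 and 4.59. The log2 ratio ranged over scaled settings from 0.87 to 1.43 for Atf4, 1.11 to 2.90 for Asns, 0.66 to 2.54 for Phgdh and 3.13 to 10.2 for Nupr1. It ranged from -0.15 to 0.20 for Ddit3, -0.36 to -0.04 for Psat1 and -0.50 to 0.92 for Sesn2. UMIs per cell without scaling moved the median of all genes to 0.83 and shift every ratio by 0.863, so that Psat1 came to 0.73. The background counts of 1151 genes higher and 1187 lower moved by over 1.5 times in several settings, to 4212 and 172 without scaling, 699 and 425 with each cell weighted alike, 402 and 511 at 50 CPM, 1797 and 1852 at a mean of 1 CPM, 3309 and 2747 with no floor, and 2116 and 2296 at 1.5-fold. Thinning gave 687 lower. The cause of these shifts was not tested where cells were weighted, thinned or filtered. No paired analysis was possible because each condition has 1 library and the labels carry no replicate numbers. Depth limits Chac1, Trib3, Asns and Sesn2 most, with 0, 2, 19 and 22 uninjured EpA UMIs.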

Other observations

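The response element was also counted over all measured genes with a promoter window. Of 209 measured genes with TGATGNAA in their promoter window, 9.09% were 2-fold higher and 15.8% were 2-fold lower, against 10.6% and 10.6% of 7919 measured genes without it. The median log2 ratio was -0.11 with a match and -0.02 without. Nupr1 and Asns were among the genes with a match, and leaving out the listed genes gave 8.21% of 207 higher. Genes are not independent replicates, and these shares are a description of 2 libraries.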
